A study of Homo sapiens with 9 samples.

Results

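The shGLO1#2 line is the one of a pair of GLO1-silenced MDA-MB-231 clones in which GLO1 mRNA was lowest, and it is compared here with the shNT control clone. The comparison took 3 shGLO1#2 and 3 shNT libraries, that is 6 of the 9 RNA libraries of the study, assigned to their groups by the labels. MDA-MB-231 is a human triple-negative breast cancer cell line of mesenchymal type. The shNT cells carried a stable non-targeting short hairpin RNA, and the shGLO1#2 and shGLO1#1 cells each carried a stable hairpin against GLO1. Each condition was 1 clone with 3 biological replicates, so the effect of the hairpin and the difference between single clones cannot be told apart, and p-values measure the spread between cultures of the same clone. The 3 shGLO1#1 libraries entered the same fit and served to test where the 2 silenced clones differed.

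Methylglyoxal is a reactive dicarbonyl that forms as a by-product of glycolysis and modifies arginine and lysine residues of proteins. Glyoxalase 1, the product of GLO1, and glyoxalase 2, the product of HAGH, turn it into D-lactate with the help of glutathione. Aldo-keto reductases and aldehyde dehydrogenases are alternative routes of dicarbonyl removal, and the study used GLO1 depletion to raise methylglyoxal inside breast cancer cells.

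The libraries held 15314238 to 18495576 counts on genes, and the gene values below are counts scaled to a common library size by the TMM method (CPM). The cells kept the markers of their line, with VIM at 4144 CPM in shGLO1#2 and 3330 in shNT and CD44 at 356 and 426, while ESR1 and PGR stayed under 1 CPM in every group. ERBB2 was at 67.9 CPM in shGLO1#2 against 79.8 in shNT and EPCAM at 10.7 against 14.6. Markers of other cell types were checked as lists. The fibroblast markers summed to between 11.2 and 16.4 CPM in the shGLO1#2 libraries and between 13.1 and 19.3 in shNT, with LUM the called member, the endothelial markers to between 7.76 and 9.81 against 4.43 to 5.80, and the leukocyte markers, of which TYROBP had no count in any library, to between 139 and 160 against 124 and 129, most of it CD68. PTPRC was the called leukocyte marker and was lower. Of the endothelial markers, PECAM1 and VWF were called higher, and CDH5 had no count in shNT and a mean of 0.0592 CPM in shGLO1#2. The part of other cell types in the results was not tested. The luminal markers summed to between 1947 and 2112 CPM against 2230 to 2671, with CDH1 the called member, and the neuronal markers to between 93.2 and 96.1 against 113 and 138, with no member called. In RNA of whole cultures, a change in the number of cells that express a gene and a change of its RNA per cell cannot be told apart.

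GLO1, the targeted gene, had 323, 312 and 317 CPM in the 3 shNT libraries and 14.6, 15.5 and 14.0 CPM in the 3 shGLO1#2 libraries. The groups did not come near each other. The log2 fold change (log2FC) was −4.43 ± 0.06 (SE, n = 3 per group, adjusted p = 7.89e-15, edgeR's quasi-likelihood test with Benjamini-Hochberg adjustment over all genes tested). With a mean of 65.4 CPM, shGLO1#1 lay between, and shGLO1#2 was lower than shGLO1#1 by a tested log2 difference of −2.15 ± 0.06 (adjusted p = 1.24e-10). Because shGLO1#2 was introduced as the clone with the lowest GLO1 mRNA, the direction of this difference is no separate finding. HAGH, the second glyoxalase, had a log2FC of −0.40 and was not called.

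Genes with an adjusted p under 0.05 that also changed by more than 1 on the log2 scale are termed called. Of 13704 genes tested, 697 (5.09%) were called higher in shGLO1#2 than in shNT and 355 (2.59%) were called lower. These percentages are the background for the gene lists below, and the median log2FC of all genes tested was 0.00. The median of the called genes was 1.82 for those higher and −1.52 for those lower. Of the genes called higher, 394 had a mean under 1 CPM in shNT, and of those called lower, 147 had a mean under 1 CPM in shGLO1#2. The 3 shNT and 3 shGLO1#2 values did not overlap for 1039 of the 1052 called genes and for 6478 of all genes tested.

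**Figure D1:**
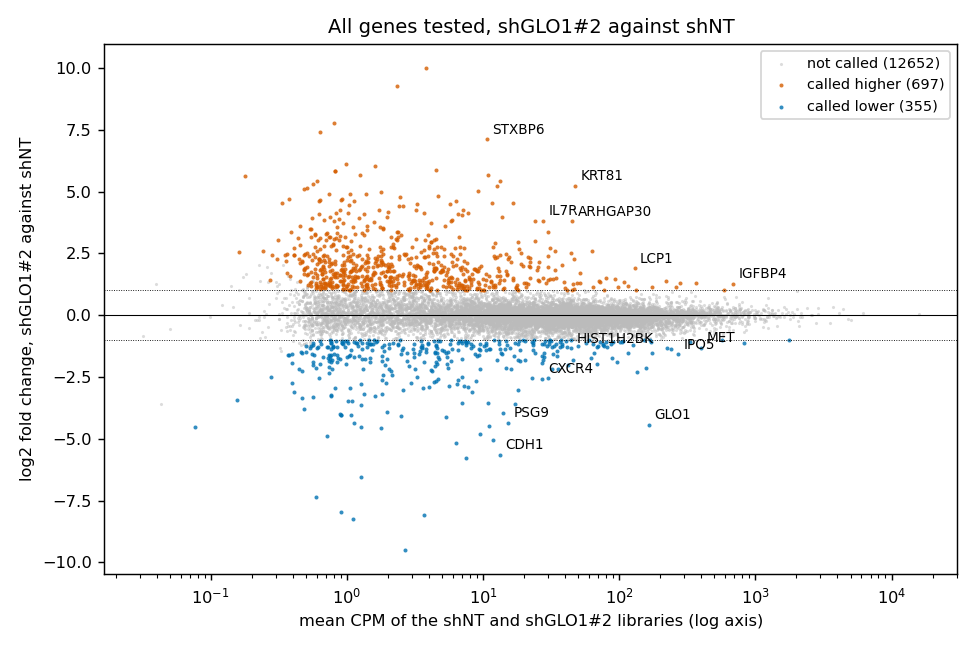
Each point is 1 of the 13704 genes tested, with its mean CPM over the shNT and shGLO1#2 libraries on a log axis and its log2 fold change in shGLO1#2 against shNT. The 697 genes called higher and 355 called lower are coloured, dotted lines mark the fold limit of 1 on the log2 scale, and GLO1 stands below all other genes of its abundance.

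Some genes went from near silence to clear expression. KRT81, a hair-type keratin, had 2.62, 2.80 and 1.99 CPM in shNT and 121, 66.6 and 89.4 CPM in shGLO1#2 (log2FC 5.23 ± 0.22, adjusted p = 6.54e-09). Its shGLO1#1 mean was 5.88 CPM, and shGLO1#2 was higher than that clone by 3.97 ± 0.20 on the log2 scale (adjusted p = 1.20e-08). KRT86, a close copy of KRT81 whose reads can be shared with it, rose with a log2FC of 2.95. LRIG1, a membrane protein that promotes the turnover of EGF receptors, rose from 0.269, 0.717 and 0.498 CPM to 17.4, 10.4 and 8.94 CPM (log2FC 4.60 ± 0.36, adjusted p = 5.27e-07). CYFIP2, a subunit of the WAVE actin regulatory complex, rose by a log2FC of 4.54, and HSPA12A, a distant member of the HSP70 family, by 5.24.

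Among abundant genes the shifts were smaller. IPO5, an importin that carries ribosomal proteins and histones into the nucleus, fell from 384, 414 and 410 CPM to 133, 131 and 142 CPM (log2FC −1.57 ± 0.05, adjusted p = 6.18e-10). DSP, the desmosomal plaque protein desmoplakin, fell from 346, 350 and 348 CPM to 130, 155 and 123 CPM (log2FC −1.36 ± 0.07, adjusted p = 2.81e-08). MET, the receptor of hepatocyte growth factor, fell from 569, 548 and 602 CPM to 200, 258 and 232 CPM (log2FC −1.32 ± 0.08, adjusted p = 5.02e-08). For these 3 genes the shNT and shGLO1#2 libraries were far apart, and shGLO1#2 was also called lower than shGLO1#1, by −1.49, −1.03 and −1.01 on the log2 scale.

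On the higher side, IGFBP4, a secreted binding protein of insulin-like growth factors, rose from 407, 400.5 and 396 CPM to 1237, 757 and 906 CPM (log2FC 1.27 ± 0.12, adjusted p = 3.78e-06). Its level was higher still in shGLO1#1, with a mean of 1690 CPM. LIMCH1, an activator of non-muscle myosin, rose from 166, 154 and 171 CPM to 369, 354 and 358 CPM (log2FC 1.14 ± 0.05, adjusted p = 1.36e-08) and was called higher than in shGLO1#1, by 1.74. TUBA1A, an alpha tubulin, rose by a log2FC of 1.39, the prion protein gene PRNP by 1.31 and HMGB3, a chromatin protein, by 1.13. The tissue factor gene F3, the adhesion receptor gene ADGRF5, the Wnt antagonist gene DKK1 and the YAP target gene ANKRD1 were called lower with log2FC of −1.13, −1.08, −1.01 and −1.01, and thrombospondin 1 (THBS1) higher with 1.01. Each of these lost its call when 1 library was left out: F3 without shGLO1#2 replicate 1 (−0.99), ADGRF5 without shGLO1#2 replicate 2 (−0.98), DKK1 without shNT replicate 1 (−0.95), shGLO1#2 replicate 1 (−0.93) or 2 (−0.94), THBS1 without shNT replicate 1 (0.89) or 2 (0.99) or shGLO1#2 replicate 3 (0.81), and ANKRD1 without shNT replicate 1 (−0.98) or 3 (−0.98) or shGLO1#2 replicate 1 (−0.90) or 2 (−0.95).

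Next, genes that set shGLO1#2 apart from both other lines were sought. Between shGLO1#2 and shGLO1#1, 457 genes (3.33%) were called higher and 514 (3.75%) lower in shGLO1#2. A total of 92 genes were called higher against shNT and against shGLO1#1 while the log2FC of shGLO1#1 against shNT stayed under 0.5 in absolute size, and 73 genes were called lower in the same way.

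IL7R, the alpha chain of the interleukin 7 receptor, had 1.61, 4.11 and 4.98 CPM in shNT and 45.7, 50.3 and 58.6 CPM in shGLO1#2 (log2FC 3.82 ± 0.23, adjusted p = 5.38e-08). In shGLO1#1 its mean was 2.89 CPM. PLCB4, a phospholipase C that splits membrane phosphoinositides downstream of G proteins, had 4.97, 5.48 and 5.43 CPM in shNT and 53.2, 54.7 and 55.5 CPM in shGLO1#2 (log2FC 3.36 ± 0.13, adjusted p = 1.50e-09). Its libraries scattered little, and shGLO1#1 had 5.47 CPM.

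WDR72, a protein required for enamel formation, had 0.336, 1.11 and 0.996 CPM in shNT and 18.3, 11.1 and 14.8 CPM in shGLO1#2 (log2FC 4.14 ± 0.28). EVL, an actin filament elongation factor of the Ena/VASP family, rose with a log2FC of 3.06. ASS1, argininosuccinate synthase of the arginine synthesis route, rose from 1.01, 1.5 and 1.05 CPM to 8.77, 6.48 and 7.45 CPM (log2FC 2.67 ± 0.22). SIPA1L2, a GTPase activator of Rap proteins, rose with a log2FC of 2.66. For these genes the log2FC of shGLO1#1 against shNT lay between 0.03 and 0.50, and shGLO1#2 was above shGLO1#1 by between 2.27 and 3.82.

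On the other side, CACNA2D4, an auxiliary subunit of calcium channels, fell from 17.3, 10.4 and 16.9 CPM to 1.34, 1.68 and 2.11 CPM (log2FC −3.12 ± 0.22, adjusted p = 2.76e-07). ID4, an inhibitor of basic helix-loop-helix transcription factors, fell from 19.4, 8.35 and 18.3 CPM to 2.98, 2.01 and 2.36 CPM (log2FC −2.65 ± 0.30, adjusted p = 1.24e-05). The second shNT library stood lower than the other shNT libraries for both genes, yet no shGLO1#2 value reached it. SCNN1A, the alpha subunit of the epithelial sodium channel, fell from 54.2, 27.5 and 47.3 CPM to 15.7, 6.87 and 11.7 CPM (log2FC −1.92 ± 0.25, adjusted p = 4.40e-05), again with the lowest shNT value in the second library.

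SLC7A7, a subunit of a cationic amino acid transporter, fell with a log2FC of −2.26, and ATP6V0D2, a subunit of the vacuolar proton pump, with −1.77. PON2, a paraoxonase with antioxidant activity, fell from 26.5, 24 and 27.0 CPM to 5.91, 10.6 and 7.94 CPM (log2FC −1.66 ± 0.15, adjusted p = 1.86e-06). The germline antigen gene MAGEA12 fell with a log2FC of −2.69, with the reservation that its reads can be shared with its close copies, and the noncoding LINC00842 with −1.98. Under shGLO1#1 the log2FC of these 8 genes stayed between −0.49 and 0.25.

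**Figure D2:**
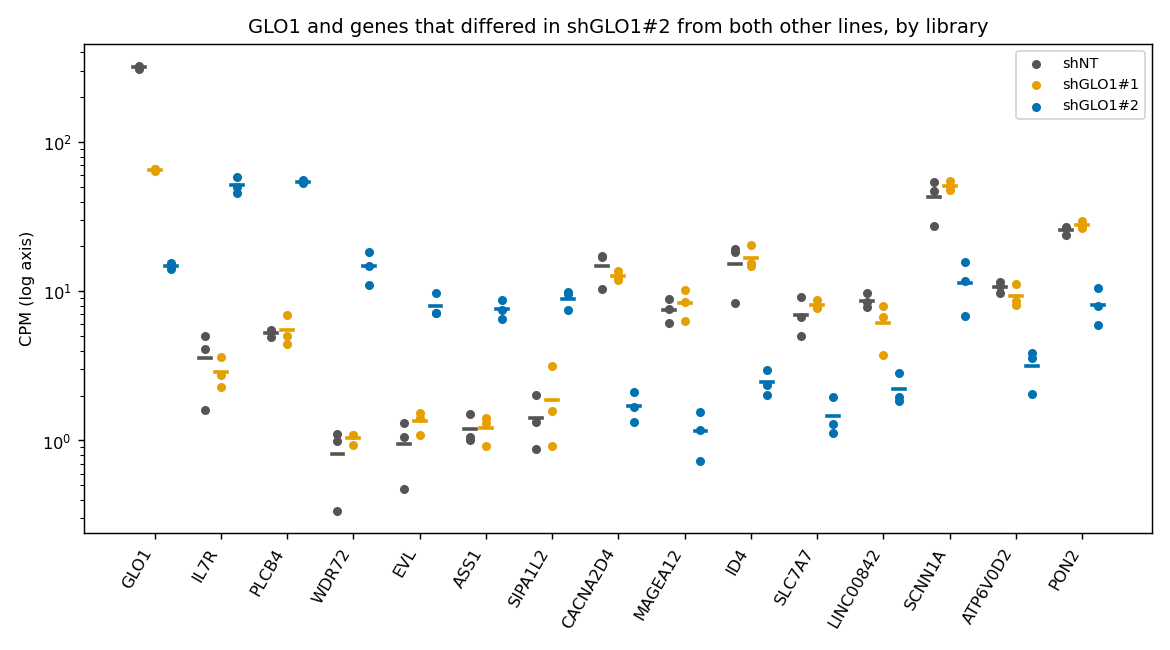
Points are the CPM values of each of the 9 libraries on a log axis and bars the group means, for GLO1 and for 14 genes that were called in shGLO1#2 against both shNT and shGLO1#1. IL7R and PLCB4 stand above both other lines in every shGLO1#2 library, and CACNA2D4, ID4 and PON2 below them.

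The sequence before the start of transcription is shown for GLO1 and for 4 of these genes, as examples of how unlike the promoters of genes that set shGLO1#2 apart were. The 250 bases upstream of the annotated start are from RefSeq (GRCh38.p14, a later build than the hg19 of the counts) and are written 5′ to 3′ on the strand of the gene, with each CpG in capitals.
GLO1, chr6:38703146-38703395, minus strand: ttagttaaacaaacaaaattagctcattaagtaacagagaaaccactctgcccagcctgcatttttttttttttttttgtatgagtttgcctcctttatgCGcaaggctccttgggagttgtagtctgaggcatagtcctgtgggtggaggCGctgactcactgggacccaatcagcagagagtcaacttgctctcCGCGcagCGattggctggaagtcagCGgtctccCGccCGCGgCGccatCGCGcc
IL7R, chr5:35856641-35856890, plus strand: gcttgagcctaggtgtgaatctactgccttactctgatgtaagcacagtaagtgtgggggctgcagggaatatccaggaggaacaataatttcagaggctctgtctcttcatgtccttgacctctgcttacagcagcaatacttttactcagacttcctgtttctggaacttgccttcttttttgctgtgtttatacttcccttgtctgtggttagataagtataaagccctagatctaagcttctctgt
WDR72, chr15:53762879-53763128, minus strand: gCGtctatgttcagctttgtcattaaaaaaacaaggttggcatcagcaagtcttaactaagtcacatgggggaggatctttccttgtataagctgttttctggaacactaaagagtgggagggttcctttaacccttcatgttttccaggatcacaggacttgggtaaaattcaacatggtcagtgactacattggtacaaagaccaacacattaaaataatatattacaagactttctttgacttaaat
SIPA1L2, chr1:232630134-232630383, minus strand: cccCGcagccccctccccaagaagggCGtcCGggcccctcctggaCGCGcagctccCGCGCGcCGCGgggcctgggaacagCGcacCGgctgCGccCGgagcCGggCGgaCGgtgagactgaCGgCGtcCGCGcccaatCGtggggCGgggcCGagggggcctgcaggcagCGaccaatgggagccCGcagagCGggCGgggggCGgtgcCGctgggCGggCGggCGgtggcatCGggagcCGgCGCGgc
ID4, chr6:19837120-19837369, plus strand: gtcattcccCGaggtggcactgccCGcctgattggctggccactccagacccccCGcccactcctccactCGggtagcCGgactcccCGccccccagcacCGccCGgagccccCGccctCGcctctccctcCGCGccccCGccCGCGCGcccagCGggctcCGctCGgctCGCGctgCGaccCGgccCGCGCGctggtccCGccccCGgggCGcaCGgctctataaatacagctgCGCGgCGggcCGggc
The IL7R and WDR72 stretches held 0 and 1 CpG, those of SIPA1L2 and ID4 held 37 and 34, and that of GLO1 held 12. Over the stretch from 250 bases before to 50 after the start, 10742 of the genes tested had a RefSeq promoter, with a median of 26 CpG and a share of 7.58% with 5 or fewer. Of the genes called higher, 504 had a promoter, with a median of 18 CpG and 21.4% with 5 or fewer. Of the genes called lower, 247 had a promoter, with a median of 20 and 25.1% with 5 or fewer. Promoters with 5 or fewer CpG were also frequent among tested genes under 1 CPM in shNT (22.5% of all, 20.5% of those called higher), but of the genes with at least 1 CPM in shNT they made 22.5% of those called higher and 6.46% of all. These shares are descriptions with no test.

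The promoters were also searched on both strands for letters of 4 transcription factor motifs that do not contain each other, with N for any base. TGANTCA, the AP-1 letters, were in 7.54% of the promoters of genes called higher, 6.07% of those called lower, 4.65% of all and 6.95% of those of all tested genes under 1 CPM in shNT. GGAATG, the letters of TEAD factors, were in 12.3%, 13.4% and 11% of the promoters of genes higher, lower and all. CACGTG was in 6.55%, 9.72% and 9.99%, and TGACGTCA in 1.39%, 2.02% and 3.23%. Of the promoters of all tested genes under 1 CPM in shNT, 13.2% held GGAATG, 7.22% CACGTG and 1.34% TGACGTCA. These are counts of letters, with no test.

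When the tested genes were put in the order of their chromosomes, shGLO1#2 showed long stretches of neighbouring genes that shifted together. RefSeq (GRCh38.p14) gave the order of 13445 of the tested genes, and medians of the log2FC were taken over each 25 neighbours, in 12893 windows whose median was 0.01. A stretch was a run of windows with medians all beyond 0.2 on one side that took in at least 50 genes. This rule was set after the medians had been seen and uses the same contrast as the calls, so the stretches are a description with no test.

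Chromosome 18 was lower from its first to its last tested gene, ROCK1P1 to PARD6G, in shGLO1#2. Of its 196 genes, 178 had a negative log2FC, and the median was −0.56 against −0.16 in shGLO1#1. The lowest window of the genome, IER3IP1 to CCDC68, lay in its later portion, with a median of −0.85, 24 of 25 genes below 0 and 6 genes called lower. On chromosome 6, the genes from DUSP22, the first one tested, to TRIM27 had a median of −0.43 over 140 genes, those from ZBED9 to ADGRF1 one of −0.38 over 241, and those from ENPP5 to TPBG one of −0.29 over 71. In shGLO1#1 these medians were 0.09, 0.02 and 0.01.

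On chromosome 7, the 342 genes from RUNDC3B to WDR60, the last tested, had a median of −0.40 in shGLO1#2 and 0.04 in shGLO1#1, and 287 of them had a negative log2FC. On chromosome 10, 3 stretches between ALOX5 and CYP2E1 had medians of −0.31, −0.31 and −0.35, where shGLO1#1 had −0.08, −0.25 and −0.30. Higher stretches were SLC22A15 to JTB on chromosome 1, with a median of 0.445 over 131 genes, and ZFPM2 to ZNF16 on chromosome 8, with 0.32 over 142, against 0.17 and −0.05 in shGLO1#1. The X chromosome held higher stretches, ZCCHC5 to KCNE5 (0.34) and FAM45B to MAGEA12 (0.21), where shGLO1#1 had 0.47 and 0.29, and a lower one, APEX2 to DIAPH2, with a median of −0.44 where shGLO1#1 had 0.38.

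**Figure D3:**
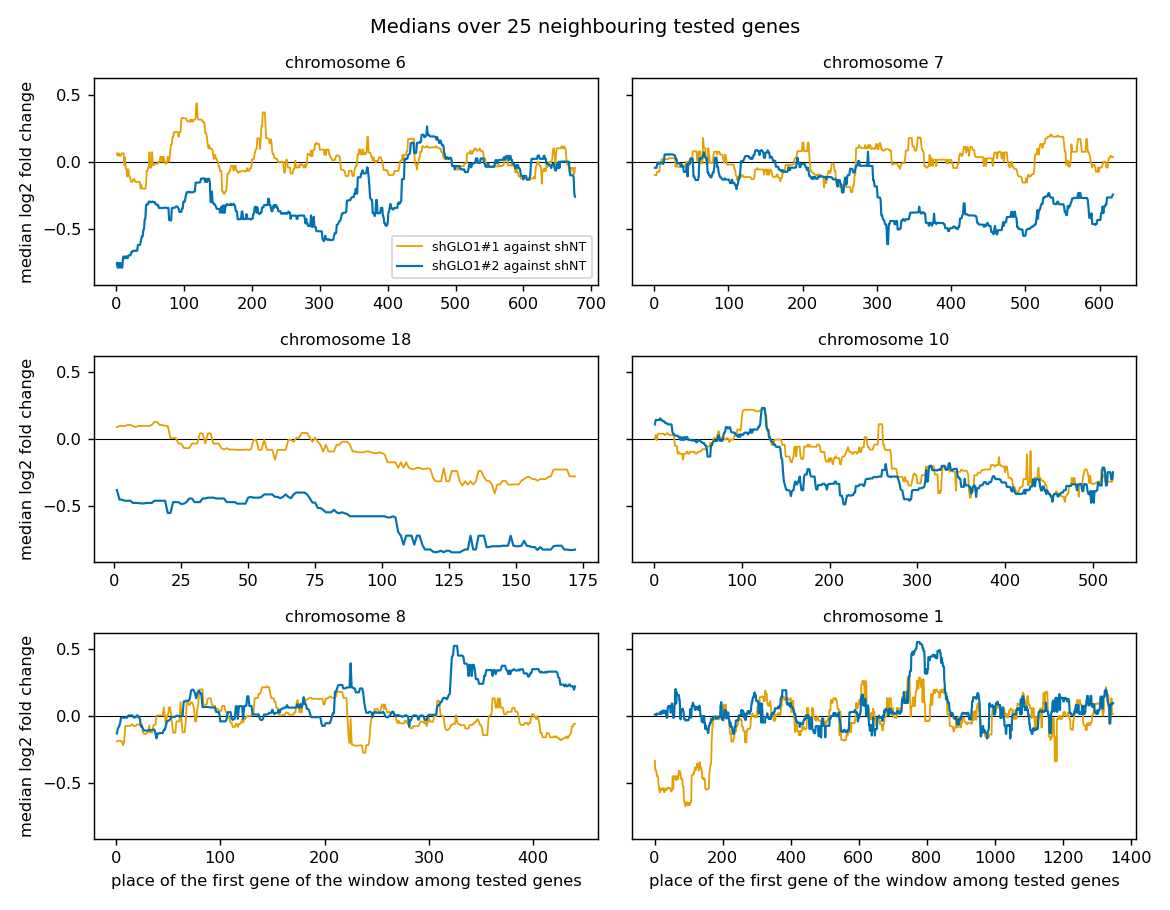
Each line gives the median log2 fold change over 25 neighbouring tested genes against the place of the first gene of the window in its chromosome, for shGLO1#2 and shGLO1#1 against the same shNT libraries. In shGLO1#2 all of chromosome 18, the earlier portion of chromosome 6 and the later portion of chromosome 7 lie below 0, with medians of −0.56, between −0.29 and −0.43, and −0.40.

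The stretches were chosen by the contrast of these same libraries, so the distance of shGLO1#2 from shNT follows from that choice. The 3 shGLO1#2 libraries are cultures of 1 clone. Over the chromosome 18 genes, the median log2 ratio to the shNT mean was −0.67, −0.45 and −0.53 in the 3 shGLO1#2 libraries and between −0.03 and 0.02 in the shNT libraries. Over the RUNDC3B to WDR60 genes it was −0.44, −0.31 and −0.37, and between −0.02 and 0.02 in shNT. Outside the stretches, the 11605 remaining genes had a median of 0.02 in the fit. The lower stretches held 1459 genes, 10.9% of those placed, and 100 of the 341 placed genes called lower (29.3%), while the higher stretches held 2.92% of the genes placed and 6.89% of those called higher. A larger share of calls in the direction of a stretch also follows from how the stretches were chosen. Without the stretches, 576 of 11605 genes (4.96%) were called higher and 230 (1.98%) lower. The files hold no DNA measurement to set beside the stretches.

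**Figure D4:**
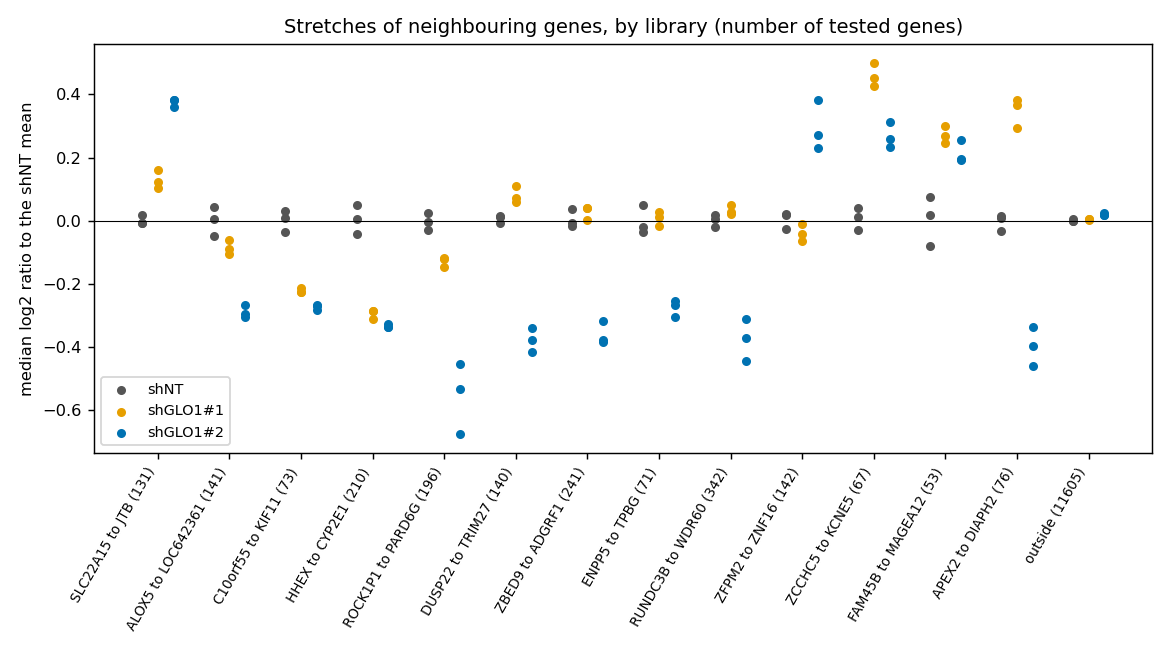
Points are the 9 libraries, each placed at the median log2 ratio of its CPM (plus 0.5) to the mean of the shNT libraries over the genes of a stretch, named by its end genes with the number of tested genes. The stretches were chosen by the contrast of shGLO1#2 with shNT, so these libraries lie apart in each stretch by that choice. All libraries lie within 0.03 of 0 outside the stretches.

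Several of the named genes lay in these stretches, some moving with and some against them. GLO1 itself lay in the ZBED9 to ADGRF1 stretch, whose median of −0.38 compares with its own −4.43. DSP and ID4 lay in the DUSP22 to TRIM27 stretch and MET and PON2 in the RUNDC3B to WDR60 stretch, and each fell by more than its stretch. IPO5 and LCP1 lay on chromosome 13 outside any stretch, in windows such as DNAJC3 to ERCC5 (median −0.09) and LCP1 to INTS6-AS1 (0.00).

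Several histone genes were lower in shGLO1#2 than in both other lines. Replication-dependent histone genes make the core and linker histones of the nucleosome, and most of their transcripts lack a poly(A) tail. Of 73 listed, 17 were tested, 8 were called lower and none higher, with a median log2FC of −0.79 against 0.25 in shGLO1#1. Between the silenced clones, 9 of the 17 were called lower in shGLO1#2 and none higher. HIST1H2BK, an H2B gene, had 66.7, 65.5 and 58.9 CPM in shNT and 24.2, 25.1 and 25.8 CPM in shGLO1#2 (log2FC −1.35 ± 0.07, adjusted p = 1.79e-08). The linker histone gene HIST1H1C had 31.9, 28.4 and 24.2 CPM in shNT and 6.52, 8.38 and 8.81 CPM in shGLO1#2 (log2FC −1.83 ± 0.12, adjusted p = 1.75e-07). HIST1H2BD fell with a log2FC of −1.49 and HIST2H2BE with −1.69.

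In each of these genes the groups were apart, and shGLO1#1 lay above shNT. Of the 17 histone genes, 11 lay in the lowered DUSP22 to TRIM27 stretch of chromosome 6, where 7 were called lower and their median was −1.05 against −0.43 for the stretch. Another 5, HIST2H2BE among them, lay in the higher stretch of chromosome 1, and HIST2H2BE was the called one of these. The part of the neighbourhood in these values was not tested. The count called lower was 5 with DESeq2, without shNT replicate 1 and without shGLO1#2 replicate 3. Histone genes are near copies of each other, so that reads can be shared among them.

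Antigen presentation moved in the class II arm. MHC class II molecules present peptides to helper T cells, and CIITA is the transactivator of their genes. Of 9 class II genes tested, 6 were called higher and none lower, with a median log2FC of 2.61 (3.84 in shGLO1#1). CIITA rose from 0, 0.587 and 0.609 CPM to 4.32, 4.52 and 4.22 CPM (log2FC 3.38 ± 0.38, adjusted p = 1.20e-05), and CD74, the invariant chain, from 24.7, 29.7 and 29.9 CPM to 65.0, 68.6 and 75.7 CPM (log2FC 1.31 ± 0.08, adjusted p = 8.97e-08). HLA-DRA rose with a log2FC of 3.56 but reached a mean of 2.03 CPM, and shGLO1#2 was below shGLO1#1 by 1.66 on the log2 scale (adjusted p = 3.46e-05). Of the 7 class II genes in the lowered ZBED9 to ADGRF1 stretch, 4 were called higher. No MHC class I or peptide loading gene was called among 15, with a median of −0.17, although 12 had an unadjusted p under 0.05. Of these 15 genes, 10 lay in the lowered stretches, with a median there of −0.33, and the list had a median of 0.34 in shGLO1#1.

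Interferon-stimulated genes encode antiviral effectors. Of 44 tested, 10 (22.7%) were called higher and 1 (2.27%) lower, with a median log2FC of 0.53. MX1, an antiviral GTPase, rose from 1.08, 1.83 and 2.66 CPM to 14.4, 10.7 and 12.8 CPM (log2FC 2.74 ± 0.24, adjusted p = 1.64e-06), and was higher than in shGLO1#1 by 1.96 (adjusted p = 9.88e-06). OAS1, which makes 2-5A, rose by 2.40 but stayed below shGLO1#1 by 1.25 on the log2 scale (adjusted p = 0.000141). OASL rose by 1.96 and MX2 by 3.50. The member called lower was IFI30, a lysosomal thiol reductase (log2FC −1.01), and none was called lower without shNT replicate 1 or without shGLO1#2 replicate 2 or 3.

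Cytokine genes moved in both directions. The chemokine receptor gene CXCR4 fell from 52.2, 42.6 and 45.5 CPM to 8.16, 8.10 and 7.26 CPM (log2FC −2.57 ± 0.11, adjusted p = 4.98e-09), less than in shGLO1#1, where it had 0.800 CPM (difference 3.27, adjusted p = 2.86e-08). IL1B rose with 1.91 from under 1 CPM in each shNT library. Among 29 cytokine genes tested, 3 were called higher, led by IL7R, and 3 lower, and 1 was called higher when genes under a mean of 1 CPM were left out.

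Genes best known from leukocytes were called in 10 of 17 cases, 7 higher and 3 lower, in cells with no count of TYROBP. LCP1, the actin-bundling protein L-plastin, rose from 26.4, 81.2 and 56.8 CPM to 230, 201 and 183 CPM (log2FC 1.90 ± 0.28, adjusted p = 0.000114), whereas shGLO1#1 had a mean of 41.1 CPM. CD33, a sialic acid-binding lectin of myeloid cells, rose from 0.0672, 0.261 and 0.277 CPM to 3.96, 4.63 and 5.27 CPM (log2FC 4.43 ± 0.33, adjusted p = 3.80e-07), against a mean of 0.271 CPM in shGLO1#1. LAPTM5, a lysosomal membrane protein, rose with a log2FC of 2.26. The pan-leukocyte phosphatase gene PTPRC went the other way, with a log2FC of −1.71.

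Regulators of small GTPases that act on the actin skeleton included genes with large changes. ARHGAP30, a GTPase activator, had 7.12, 6.65 and 4.59 CPM in shNT and 108, 75.3 and 70.8 CPM in shGLO1#2 (log2FC 3.80 ± 0.19, adjusted p = 1.73e-08). Its shGLO1#1 mean was 3.91 CPM, and the clones differed by 4.43 on the log2 scale (adjusted p = 6.19e-09). RHOJ, a small GTPase of the Cdc42 family, rose with a log2FC of 2.74, and ARHGEF6, an exchange factor for Rac, with 2.76. Of 48 actin, myosin and contractile genes, 2 were called higher and none lower, and the median was −0.23. At an adjusted p under 0.05 with no fold limit, 28 of them were below 0 and 4 above 0 by edgeR's test.

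Of 73 ion channel genes tested, 16 (21.9%) were called higher and 5 (6.85%) lower. KCNK1, a potassium leak channel, rose from 0.806, 2.93 and 1.55 CPM to 13.0, 12.5 and 9.93 CPM (log2FC 2.74 ± 0.33, adjusted p = 2.00e-05). KCNH8, a voltage-gated potassium channel, rose with 2.15 from under 1 CPM in each shNT library. When genes under a mean of 1 CPM were left out, 9 channel genes were called higher, and with no filter 22 were.

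**Figure D5:**
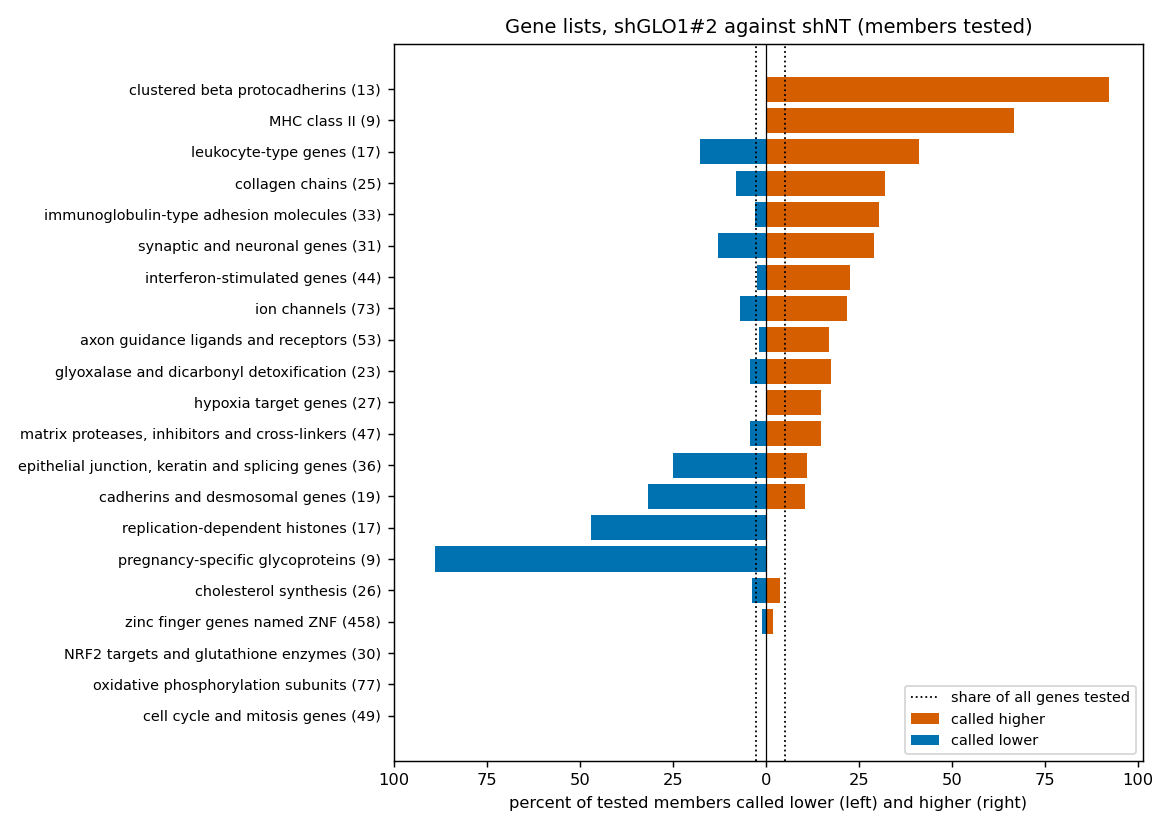
Bars give the percent of the tested members of each list that were called higher (right) or lower (left) in shGLO1#2 against shNT, with the number tested in parentheses, and dotted lines give the shares over all genes tested, 5.09% and 2.59%. MHC class II genes reach 66.7% higher and histone genes 47.1% lower, and 3 lists at the foot have no member called.

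In the list of 23 glyoxalase and dicarbonyl enzymes, 4 were called higher and GLO1 lower, and the median log2FC was 0.00. AKR1C3, an aldo-keto reductase, rose from 1.55, 5.54 and 5.20 CPM to 24.4, 19.99 and 19.4 CPM (log2FC 2.35 ± 0.27, adjusted p = 1.23e-05). AKR1C1 rose with 1.98 and the aldehyde dehydrogenase gene ALDH3A1 with 1.86. The AKR1C genes are close copies. AKR1B1, the main aldose reductase, had a log2FC of −0.48 and was not called. It lies in the lowered RUNDC3B to WDR60 stretch, whose median was −0.40 in shGLO1#2 and 0.04 in shGLO1#1. In shGLO1#1, AKR1B1 had a log2FC of −0.43.

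Of 26 glycolysis genes, 1 was called, the brain-type aldolase gene ALDOC (14.5, 9.98 and 11.7 CPM in shNT, 37.3, 23.8 and 27.1 CPM in shGLO1#2, log2FC 1.28 ± 0.16, adjusted p = 3.03e-05). The number of glycolysis genes called was 1 to 3 over the alternative settings. At an adjusted p under 0.05 with no fold limit, 15 of the 26 were above 0 and 3 below 0 by edgeR's test. HK2 had a log2FC of −0.18 and LDHA one of 0.27. By edgeR's test at an adjusted p under 0.05, LDHA passed and HK2 did not, and neither passed the fold limit. None of 77 oxidative phosphorylation genes, 30 NRF2 targets and glutathione enzymes, 31 genes of fatty acid and lipid handling, 31 of the integrated stress and unfolded protein responses, or 37 proteasome genes was called by edgeR's test or by DESeq2. Their medians lay between −0.12 and 0.12. At an unadjusted p under 0.05 and with no fold limit the counts were 27, 17, 17, 16 and 16. The NRF2 target NQO1, a quinone reductase, had 134, 128 and 139 CPM in shNT and 249, 208 and 249 CPM in shGLO1#2 (log2FC 0.82 ± 0.07, adjusted p = 1.76e-06), and was called higher than in shGLO1#1, by 1.06. HMOX1 had a log2FC of 0.27 and DDIT3 one of −0.31.

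Of cholesterol synthesis and uptake genes, 26 were tested. The median log2FC was 0.08 in shGLO1#2 and −0.75 in shGLO1#1, and 8 of them were called higher in shGLO1#2 than in shGLO1#1, against 3.33% of all genes.

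Hypoxia targets were called higher in 4 of 27 cases (14.8%) and in none lower, with a median of 0.35 in both silenced clones. NDRG1, a stress-induced cytoplasmic protein, rose from 244, 201 and 196 CPM to 680, 440 and 447 CPM (log2FC 1.29 ± 0.16, adjusted p = 2.18e-05). STC1, a secreted glycoprotein, rose with a log2FC of 1.35 and the carbonic anhydrase genes CA12 and CA9 with 1.86 and 2.07. NDRG1 lay in the higher stretch of chromosome 8.

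The heat shock list held 23 tested genes, of which 3 were called higher, led by HSPA12A, and HSPA1L lower. The classical inducible gene HSPA1A had a log2FC of −0.80 and was not called. None of 49 cell cycle genes was called by edgeR's test or DESeq2, and 22 had an unadjusted p under 0.05. MKI67, a marker of dividing cells, had a log2FC of −0.35 in shGLO1#2 and −0.64 in shGLO1#1. It lies in the lowered HHEX to CYP2E1 stretch, whose medians were −0.35 and −0.30. Cytoplasmic ribosomal protein genes took 5.19 to 5.29% of the counts in shGLO1#2 and 4.63 to 4.84% in shNT, with a median log2FC of 0.15 (−0.22 in shGLO1#1). None of 81 was called by either tool, while 42 were above 0 and 6 below 0 at an adjusted p under 0.05 by edgeR's test.

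The study followed MEK/ERK signalling and SMAD1 through protein phosphorylation, which the RNA values below do not measure. By RT-qPCR it reported the phosphatase genes DUSP1, DUSP5, DUSP8 and DUSP16 as lower with both GLO1 hairpins. Of 35 genes of ERK output and feedback, none was called by edgeR's test or DESeq2, 16 had an unadjusted p under 0.05, and the median log2FC was 0.12. At an adjusted p under 0.05 with no fold limit, 11 of the 35 were above 0 and 3 below 0 by edgeR's test. Of the dual specificity phosphatases, which switch off MAP kinases, DUSP8 fell from 4.90, 5.15 and 2.44 CPM to 1.83, 1.51 and 0.869 CPM (log2FC −1.55 ± 0.34, adjusted p = 0.00264). DUSP5 had 269, 243 and 211 CPM in shNT and 171, 162 and 157 CPM in shGLO1#2 (log2FC −0.56 ± 0.10, adjusted p = 0.000602), without reaching the fold limit. It lies in the lowered HHEX to CYP2E1 stretch of chromosome 10, whose median was −0.35 in shGLO1#2 and −0.30 in shGLO1#1. In shGLO1#1, DUSP5 had a log2FC of −0.91. DUSP16 had a log2FC of −0.67, and DUSP1 one of −0.13, where shGLO1#1 was called lower with −1.56 and the clones differed by 1.43 (adjusted p = 1.04e-07). Of 65 serine/threonine phosphatase subunits, 1 was called higher and none lower, and none was called with DESeq2. At an adjusted p under 0.05 with no fold limit, 17 of the 65 were below 0 and 4 above 0 by edgeR's test. Of the 65, 11 lay in lowered stretches, with a median there of −0.31, against −0.05 for the 53 outside any stretch.

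SMAD1 had a log2FC of 0.34 and SMAD5 of 0.21, and neither was called. SMAD7, the inhibitory SMAD that BMP and TGF-beta signals induce, fell from 6.99, 6.06 and 8.64 CPM to 2.07, 2.57 and 3.54 CPM (log2FC −1.41 ± 0.26, adjusted p = 0.000616) and lay on chromosome 18. It was called lower than in shGLO1#1, by 1.76 on the log2 scale (adjusted p = 6.86e-05). INHBB, the activin beta B chain, fell with a log2FC of −2.19, and the ligand gene BMP8B rose with 2.71. In all, the SMAD pathway list had 2 genes higher and 4 lower of 39.

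The study named a set of SMAD1 targets from these libraries, so their directions are no independent evidence. Of these, GLI2, a Hedgehog transcription factor, rose from 0, 0.196 and 0.277 CPM to 6.64, 4.75 and 2.79 CPM (log2FC 4.78 ± 0.52, adjusted p = 8.77e-06). PECAM1, an endothelial adhesion molecule, rose with 1.90. B3GNT7, a glycosyltransferase, had 1.21, 0.848 and 0.498 CPM in shNT and 0.548, 0.614 and 0.434 CPM in shGLO1#2 (log2FC −0.63, not called), but a mean of 7.48 CPM in shGLO1#1, so that the clones differed by −3.79 (adjusted p = 1.11e-07). HEYL, a Notch effector, rose with 3.02, the Wnt ligand gene WNT5A with 2.65, and RNF43, a ubiquitin ligase that restrains Wnt receptors, fell with −2.65.

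Of 25 collagen chains, 8 were called higher and 2 lower, the latter those of the collagen IV alpha 3 and alpha 4 chains, a basement membrane collagen. COL4A4 fell from 46.9, 34.8 and 35.1 CPM to 7.74, 6.48 and 5.65 CPM (log2FC −2.55 ± 0.17, adjusted p = 1.81e-07), and COL4A3 fell with −2.85. The collagen VI chains COL6A1 and COL6A2 rose with 2.72 and 4.84. COL6A1 had 4.70, 11 and 8.75 CPM in shNT and 64.0, 41.3 and 56.6 CPM in shGLO1#2. COL6A3, the third chain, rose with 1.22, far less than in shGLO1#1 (3.57), and lost its call without shGLO1#2 replicate 1 (0.99). The difference between the clones was −2.35 for COL6A3 and 1.22 for COL6A2, both called.

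Tenascin C (TNC), a matrix glycoprotein of wound and tumour stroma, rose from 3.56, 15.5 and 9.58 CPM to 52.9, 62.0 and 37.8 CPM (log2FC 2.41 ± 0.32, adjusted p = 4.83e-05). TGFBI, an integrin-binding matrix protein, rose with 1.10. LUM, the proteoglycan lumican, fell from 4.90, 3.91 and 5.37 CPM to 0.0609, 0.335 and 0.434 CPM (log2FC −4.06 ± 0.34, adjusted p = 9.82e-07).

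At the cell surface, 12 of 13 beta protocadherins, cell recognition molecules encoded side by side, were called higher, with a median of 2.01, and 8 of 9 pregnancy-specific glycoproteins were called lower, with a median of −4.35. In shGLO1#1 these medians were 2.54 and −4.13, and members of both families share reads. Of 33 tested genes in the list of immunoglobulin-type adhesion molecules, 10 were called higher. Among them L1CAM, a neural adhesion molecule, rose from 3.56, 5.54 and 3.54 CPM to 20.04, 27.6 and 19.7 CPM (log2FC 2.42 ± 0.18, adjusted p = 4.44e-07), against 5.10 CPM in shGLO1#1 (difference 2.14, adjusted p = 6.05e-07). ROBO4, a guidance receptor of endothelium, rose from 5.78, 6.52 and 4.87 CPM to 35.4, 32.3 and 30.0 CPM (log2FC 2.51 ± 0.12, adjusted p = 1.15e-08), against 9.09 CPM in shGLO1#1 (difference 1.84, adjusted p = 4.79e-08). CD24, a surface protein of epithelial cells that the paper calls mucin-like, rose with 2.73 and is counted among the 33 genes.

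Of 36 epithelial junction, keratin and splicing genes tested, 9 were called lower and 4 higher, and of 19 cadherins and desmosomal genes, 6 lower and 2 higher. Of these 19, 7 lay in lowered stretches of neighbouring genes, with a median there of −1.36 and 4 of the 6 lower calls. The other 12 had a median of 0.02, with 2 called higher and 2 lower. The 2 higher genes, CDH3 and CDH12, had means of 1.52 and 1.36 CPM in shGLO1#2 and were not tested with the filter at 1 CPM. SPINT1, an inhibitor of epithelial serine proteases, fell from 66.6, 42.1 and 45.5 CPM to 9.62, 8.43 and 8.5 CPM (log2FC −2.53 ± 0.16, adjusted p = 1.12e-07), below shGLO1#1 at 22 CPM (difference −1.31, adjusted p = 3.02e-05). Of 15 mesenchymal genes and their transcription factors, 2 were called higher and 2 lower, with a median of 0.32. The transcription factor genes TCF4 and PRRX1 rose with 2.89 and 2.1, and ZEB1 had a log2FC of 0.05. The lower genes were CDH2, which encodes N-cadherin (log2FC −2.96 ± 0.32, adjusted p = 7.92e-06), and CDH11, which encodes another mesenchymal cadherin (−1.07 ± 0.11). CDH2 and TCF4 both lie in the lowered ROCK1P1 to PARD6G stretch of chromosome 18. CDH11 lost its call without shNT replicate 3 (−0.96) or shGLO1#2 replicate 2 (−0.999). VIM was at 3578, 3388 and 3023 CPM in shNT and 4383, 4131 and 3918 CPM in shGLO1#2 (log2FC 0.32 ± 0.07, adjusted p = 0.00191), within the fold limit.

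DNMT3A, a DNA methyltransferase that sets new methylation, was the called one of 45 DNA methylation and chromatin silencing genes, and rose from 2.22, 2.35 and 2.05 CPM to 12, 10.6 and 9.56 CPM (log2FC 2.28 ± 0.17, adjusted p = 3.42e-07). It had a log2FC of 2.15 in shGLO1#1. Zinc finger genes named ZNF had 9 of 458 called higher (1.97%) and 5 lower (1.09%), against 5.09% and 2.59% of all genes.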

How the data were processed

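RNA of 3 shNT, 3 shGLO1#1 and 3 shGLO1#2 libraries of MDA-MB-231 clones was sequenced by the authors. Per the submitters' processing notes, bcl2fastq 2.17, TopHat2 2.1.1 and HTSeq were used with the human build hg19. For the annotation and the strand option of the counting, no entry was given in the sources used here, and reads of overlapping or antisense genes and of near-identical copies (histone, keratin, HLA, AKR1C, protocadherin, MAGE and pregnancy-specific glycoprotein genes) cannot be told apart with certainty. The deposited files hold raw counts of reads per gene for each library. The HTSeq summary lines were left out, 12.8 to 15.2% of reads with no feature, 1.50 to 1.95% ambiguous and 5.76 to 6.15% not unique.

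Counts of 26364 genes were filtered with filterByExpr (minimum count 10, minimum total 15), which left 13704, scaled by TMM and fitted for all 9 libraries in edgeR 4.0.16 (R 4.3.3) with the quasi-likelihood F-test and Benjamini-Hochberg adjustment over all genes tested. Standard errors are the absolute log2FC divided by the square root of F. A gene particular to shGLO1#2 was called against both other lines with an absolute log2FC under 0.5 between these. The fit was tested on simulated data first. Alternatives were DESeq2 1.42.0, its size factors, no filter, a filter at a mean of 1 CPM, only the groups compared, a replicate block and each library left out. Depth was 15314238 to 18495576 counts a library, and the number of libraries, 3 a group, limits the precision. Deviations of same-numbered shNT and shGLO1#2 libraries from their group means correlated with r of 0.21, 0.185 and 0.309, so the numbers were taken to pair them. For shGLO1#1 and shGLO1#2 the values were 0.197, 0.0691 and 0.341. Here shGLO1#1 replicate 2 had an r of 0.0751 with shGLO1#2 replicate 1, and the numbers were not taken to pair. The main fit paired no libraries, and whether all groups share a replicate effect was not tested.

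The genes named were GLO1, the 12 higher and 12 lower called genes with the largest change and at least 5 CPM, the 8 and 8 with the largest difference in CPM, the 8 and 8 particular to shGLO1#2, up to 4 called members of each of 62 gene lists with at least 1 CPM, and a set of key genes. The text gives those with values to show, and some of them are not reported here. IFI30, PTPRC, VWF and the genes at the ends of stretches were named after their values were seen. The comparison and the lists were chosen with earlier results of these data known. List patterns that took in genes of other families were corrected after values were seen. RefSeq tables (GRCh38.p14) served for promoters and gene order and not for hg19 positions. Figures were drawn with matplotlib 3.10.9 in Python 3.11.15.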

Additional observations from a re-analysis of the deposited data

Results flagged for a closer look

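The silenced clones were compared with the same shNT libraries, and for 41 of the genes followed their effects differed by the test between the clones. GLO1 is among the 41, but its direction is no separate finding, since shGLO1#2 was introduced as the clone with the lowest GLO1 mRNA. Values are the log2 difference of shGLO1#2 from shGLO1#1 in edgeR's quasi-likelihood test.

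The difference was positive, with shGLO1#2 above shGLO1#1, for STXBP6 (9.64), COL11A1 (6.0), TNS1 (5.56), IL7R (4.16), KRT81 (3.97), WDR72 (3.82), PLCB4 (3.32), ASS1 (2.63), EVL (2.57), CYFIP2 (2.45), HSPA12A (2.41), GLI2 (2.35), LCP1 (2.32), SIPA1L2 (2.27), KALRN (2.08), MAGEC2 (1.97), LRIG1 (1.97), IGSF3 (1.78), LIMCH1 (1.74), DUSP1 (1.43), COL6A2 (1.22) and NQO1 (1.06).

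It was negative, with shGLO1#2 below shGLO1#1, for B3GNT7 (−3.79), CACNA2D4 (−2.88), MAGEA12 (−2.83), ID4 (−2.78), SLC7A7 (−2.48), C6orf223 (−2.37), COL6A3 (−2.35), SCNN1A (−2.17), GLO1 (−2.15), PSG1 (−1.91), CDH1 (−1.79), PON2 (−1.75), LUM (−1.67), ATP6V0D2 (−1.56), IPO5 (−1.49), LINC00842 (−1.48), PSG5 (−1.19), DSP (−1.03) and MET (−1.01).

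With 3 libraries a group, single libraries were not tested for standing apart.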

How the results depend on the processing

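The comparison is of 1 clone with 1 clone, so that the hairpin and the clone cannot be told apart, and depth limits genes under about 1 CPM. With no fold limit, 2510 genes were higher and 2711 lower than in shNT, and 3126 higher and 3243 lower than in shGLO1#1. The counts of called genes, 697 higher and 355 lower against shNT and 457 and 514 against shGLO1#1, stayed within 1.5 times under all other settings. DESeq2 gave 676 and 322 against shNT, no filter 924 and 401, and the filter at 1 CPM 513 and 272. With the replicate block, which keeps the pairing of same-numbered libraries, 717 were higher and 359 lower against shNT, and GLO1 was at −4.43. It changed no call named above. Against shGLO1#1, where the numbers were not taken to pair, the block gave 461 and 528. Leaving out each library in turn gave 649 to 766 higher and 322 to 374 lower against shNT, 438 to 504 and 486 to 588 against shGLO1#1, and −4.46 to −4.39 for GLO1, and the genes particular to shGLO1#2 numbered 81 to 105 higher and 60 to 77 lower. Of 184 named genes that were called, 25 were not tested with the filter at 1 CPM. Among the settings in which a gene was tested, 18 lost the call at least once, mostly genes near the fold limit, and none turned direction. ANKRD1 also lost it with DESeq2 (−0.998). The cause was not tested.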
